A study of Mus musculus with 12 samples.

Results

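Keratins and the genes of the cornified envelope mark keratinocytes, the epithelial cells that make up most of the epidermis. They are described here in 12 libraries of immune cells sorted from mouse epidermis. The set was chosen by gene name: all symbols of the deposited table that start with Krt and a digit, with Sprr, with Lce, or with Dsg or Dsc and a digit, together with Lor, Flg, Ivl, Sbsn and Dmkn. This gave 100 of the 23420 symbols, namely 52 keratins, 15 small proline-rich (Sprr) genes, 20 late cornified envelope (Lce) genes, 9 desmosomal cadherins (Dsg and Dsc) and 4 of the 5 genes chosen by their full name. Flg is not analysed here.

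Cells were gated as CD45+, CD3-, CD11b+ and MHCII+ by fluorescence-activated sorting of epidermal cells, and each library was made from 100 cells. Wild-type mice (wt) and Cbfβ2 knockout mice (KO) were sampled 5 days after birth (P5) and at 1.5 months (1.5M), with 3 libraries in each of the 4 groups. Cbfβ2 is a splice form of the non-DNA-binding subunit of the core-binding factor, the partner of the Runx transcription factors. The 3 libraries of a group are independent preparations according to the labels, but whether they came from separate animals, the strain, and whether the deletion is limited to a cell type are not stated in them. The p-values therefore measure the spread between these preparations, which may be technical.

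In stratified epidermis, keratinocytes divide in the basal layer, where Krt5 pairs with Krt14 into intermediate filaments. They switch to Krt1 and Krt10 as they move up, and finally crosslink loricrin, involucrin and the Sprr and Lce proteins into the cornified envelope beneath the dead outer layer. Desmosomal cadherins, the desmogleins and desmocollins, hold neighbouring keratinocytes together, and further keratins build the hair shaft and the inner root sheath of the follicle. Langerhans cells, the dendritic cells that the gate can hold, sit among these keratinocytes, and keratins of this kind are not part of their known expression program.

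Values are scaled counts: molecules counted once through a molecular barcode, scaled by the authors so that each library totals 37092. Because each molecule is counted once near its 3' end, levels of different genes on this scale do not grow with transcript length. Libraries held 34192 to 52208 molecules (P5 wt), 30913 to 51001 (P5 KO), 40254 to 51848 (1.5M wt) and 74620 to 77419 (1.5M KO). Where a group showed 0 molecules of a gene, counting error alone allows 3 molecules over its 3 libraries. This floor is 0.895 scaled counts for P5 wt, 0.907 for P5 KO, 0.831 for 1.5M wt and 0.485 for 1.5M KO. Cbfb, which encodes the deleted form, had scaled counts of 4.97, 4.34 and 3.91 (P5 wt), 3.63, 1.45 and 2.40 (P5 KO), 13.8, 7.15 and 10.7 (1.5M wt) and 1.92, 0.99 and 2.40 (1.5M KO), and a 3' tag does not separate its splice forms. Of the gate genes, Cd74, the invariant chain of MHC class II, averaged 753, 533, 1614 and 1049 in the same order of groups. Ptprc, which encodes CD45, averaged 15.9, 14.9, 16.2 and 34.2, and Itgam, which encodes CD11b, averaged 4.93, 10.01, 4.69 and 11.2. Cd3e and Cd3g were at 0 in all 12 libraries, whereas Cd3d was above 0 in P5 KO library 3 alone. Cd207, which encodes langerin, the defining marker of Langerhans cells, was at 0 in all 3 P5 KO libraries and averaged 1.58 in P5 wt, with means of 214 in 1.5M wt and of 21.0 in 1.5M KO.

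The 100 genes lie in a few clusters (gene positions from GENCODE vM21, GRCm38, which is mm10; 99 of the 100 symbols were matched). The type I keratins, with Krt10, Krt14, Krt15, Krt17 and Krt25, are on chromosome 11 between 99232761 and 100269871, where 27 of the symbols fall. The type II keratins, with Krt1, Krt2, Krt5 and Krt79, are on chromosome 15 between 101347444 and 102032027, with 24 symbols. The epidermal differentiation complex on chromosome 3, between 92080271 and 93019060, holds 37 symbols, which are Lor, Ivl and the Sprr and Lce genes. The 9 desmosomal cadherins form a cluster of their own, and Sbsn and Dmkn lie side by side on chromosome 7, between 30751471 and 30781063.

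Promoters of called genes (those past the test described further on) are shown because these genes come from several of the clusters. A promoter was kept only where its RefSeq start lay close to the GENCODE gene start, and the desmosomal cadherins were left out. This kept 7 of the 13 called genes, of which Krt10, Krt25 and Lor hold the motif TATAAA and Krt5, Krt79, Dmkn and Sbsn do not. The 3 with it are printed, with Krt5 as an example of the 4 without. Each line gives the 100 bases before the RefSeq transcription start, 5' to 3' on the gene's strand (GRCm38.p6), and TATAAA, the core of the TATA box, is in capitals.
Krt10, chromosome 11, 99389365 to 99389464, minus strand: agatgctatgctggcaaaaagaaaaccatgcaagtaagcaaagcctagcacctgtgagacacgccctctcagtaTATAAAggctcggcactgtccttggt
Krt25, chromosome 11, 99322952 to 99323051, minus strand: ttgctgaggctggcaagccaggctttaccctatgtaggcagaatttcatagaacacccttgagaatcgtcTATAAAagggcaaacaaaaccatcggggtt
Lor, chromosome 3, 92083143 to 92083242, minus strand: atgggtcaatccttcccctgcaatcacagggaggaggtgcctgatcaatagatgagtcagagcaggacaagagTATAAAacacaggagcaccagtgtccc
Krt5, chromosome 15, 101712906 to 101713005, minus strand: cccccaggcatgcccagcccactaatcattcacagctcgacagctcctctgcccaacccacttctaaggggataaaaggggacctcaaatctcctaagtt

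The first base of TATAAA lies 26 bases before the start in Krt10, 30 in Krt25 and 27 in Lor. The Krt5 window does not hold these letters on either strand. Of the 71 symbols of the set with a promoter in the RefSeq table, 29 (40.8%) have TATAAA on either strand within 100 bases before a start, against 1827 of 32851 promoters in the whole table (5.56%). Among the 36 of these that were detected in any library, 15 have it. A symbol counted if any of its starts had the motif, whereas the whole table was counted by promoter, so these shares are of unlike units. A match is a description of the sequence and not of a factor's binding, and genes of a cluster share ancestry, so the matches are not independent.

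Of the 100 genes, 53 were above 0 in at least 1 library and 47 were at 0 in all 12. Detected were 26 of 52 keratins, 5 of 15 Sprr genes, 10 of 20 Lce genes, 8 of 9 desmosomal cadherins, and Lor, Ivl, Sbsn and Dmkn. Signal was concentrated: the 5 highest, Krt10, Krt1, Krt5, Dmkn and Krt14, carried 74.4% of the summed value over the 12 libraries. Of the 53 detected genes, 26 were above 0 at P5 alone and 5 at 1.5M alone.

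The summed scaled count of the 100 genes was 100.2, 105.8 and 71.3 in P5 wt, 697.8, 236.4 and 266.4 in P5 KO, 52.5, 12.5 and 21.3 in 1.5M wt, then 27.3, 13.4 and 12.5 in 1.5M KO. All 3 P5 KO libraries were above all 3 P5 wt libraries, which were in turn above all 6 libraries at 1.5M, whereas the wt and KO ranges at 1.5M overlapped. The mean sum was 92.4 ± 18.5 for P5 wt and 400.2 ± 258 for P5 KO, then 28.8 ± 21.0 for 1.5M wt and 17.7 ± 8.32 for 1.5M KO (SD, n = 3 each). As a share of the library this was 0.249% ± 0.0499, 1.08% ± 0.696, 0.0776% ± 0.0567 and 0.0478% ± 0.0224. The sums rest on 73 to 141 molecules for a P5 wt library and 222 to 768 for a P5 KO library, and at 1.5M on 17.5 to 57 (wt) and 26 to 57 (KO). In bulk libraries, more keratinocytes among the cells and more keratin RNA per cell cannot be told apart.

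**Figure D1:**
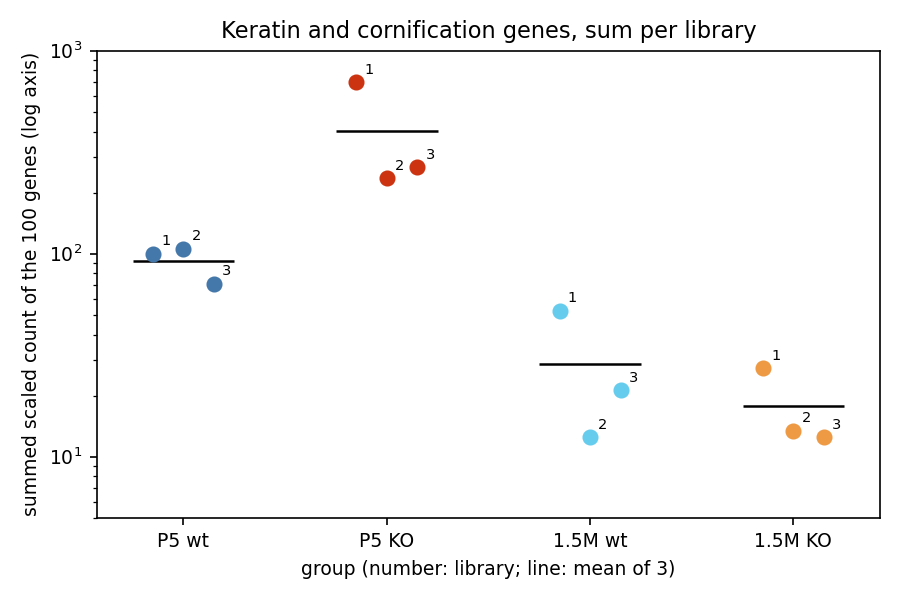
Summed scaled count of the 100 keratin and cornification genes in each library (log axis), with 1 point per library, its number beside it, and a line at the mean of the 3 libraries of a group. P5 KO library 1, at 697.8, stands apart from the other P5 KO libraries at 236.4 and 266.4, and all P5 libraries lie above all 1.5M libraries.

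Single libraries weighed on these ratios. The P5 KO mean was 4.33 times the P5 wt mean, and 2.72 times without P5 KO library 1. The P5 KO mean was 22.6 times the 1.5M KO mean, and 14.2 times without P5 KO library 1. The P5 wt mean was 3.21 times the 1.5M wt mean, and 5.46 times without 1.5M wt library 1. The 1.5M KO mean was 0.616 of the 1.5M wt mean, and 1.05 times it without 1.5M wt library 1. No test was made on the sum, since the set was chosen with earlier results of these data known.

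More members were detected at P5, and only 1.5M KO library 1, with 20, reached the range of the P5 libraries. P5 wt libraries held 18 to 25 of the 100 genes, P5 KO libraries 23 to 34, 1.5M wt libraries 8 to 12 and 1.5M KO libraries 12 to 20, although the last group was the most deeply sequenced. Of the 53 detected genes, 21 had their highest value in P5 KO library 1, 9 in P5 KO library 2, 8 in P5 KO library 3, 7 in P5 wt library 1 and 3 in P5 wt library 3. A further 3 were highest in 1.5M wt library 1 and 2 in 1.5M KO library 1.

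**Figure D2:**
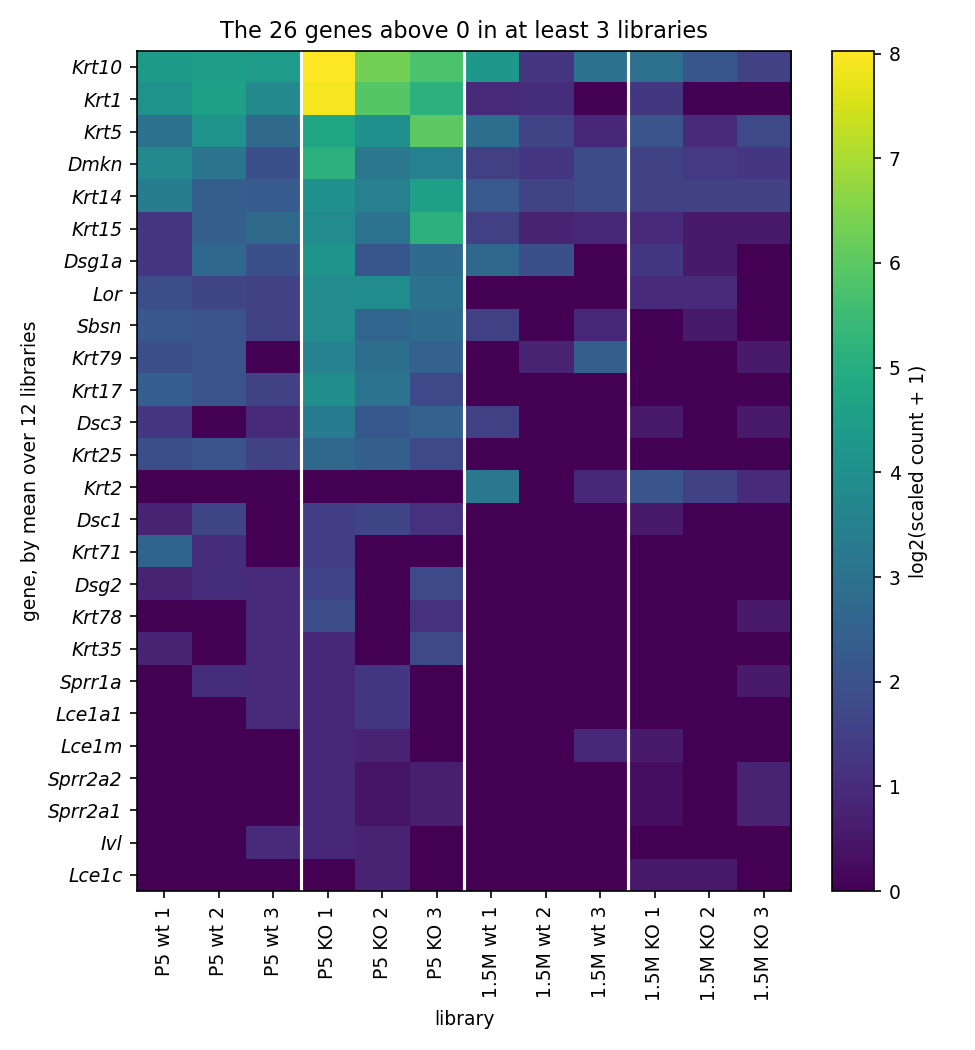
Heat map of log2(scaled count + 1) for the 26 genes above 0 in at least 3 libraries (rows, ordered by their mean) in the 12 libraries (columns, white lines between groups). Krt10 and Krt1 are brightest in P5 KO library 1, at 260 and 242 scaled counts, and Krt2 is at 0 in all 6 P5 libraries and above 0 in 5 of the 6 libraries at 1.5M.

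Krt10 and Krt1, the paired keratins of the differentiating suprabasal layers, were the most abundant members. Krt10 was at 19.9, 21.7 and 20.5 in P5 wt, 260, 80.0 and 52.8 in P5 KO, 18.4, 1.43 and 7.11 in 1.5M wt, then 6.71, 3.48 and 1.92 in 1.5M KO. Krt1 was at 16.3, 23.3 and 12.7 in P5 wt, 242, 59.6 and 34.8 in P5 KO, 0.92, 1.07 and 0 in 1.5M wt, then 1.44, 0 and 0 in 1.5M KO. Both genes were higher in every P5 KO library than in any P5 wt library, and both were highest in P5 KO library 1. The pair did not run in parallel at 1.5M, where Krt10 was above 0 in all 6 libraries and Krt1 in 3. Over the 3 libraries of a group, Krt1 had 57.5 molecules against 69 of Krt10 in P5 wt and 377 against 440 in P5 KO, but 2.5 against 30 in 1.5M wt and only 3 against 25 in 1.5M KO. The ratio of Krt1 to Krt10 molecules lay between 0.619 and 1.08 in the 6 P5 libraries, and at 1.5M it was 0 in 3 libraries and 0.05, 0.75 and 0.214 in the others, from few molecules. Krt1 had a molecule number that was not whole in 2 libraries.

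Krt2, a keratin of the upper suprabasal layers, was detected at 1.5M alone. It was at 0 in all 6 P5 libraries, at 8.29, 0 and 0.89 in 1.5M wt and at 3.36, 1.99 and 0.96 in 1.5M KO. Against the P5 floors, the 1.5M KO mean was at least 2.32-fold higher, and at least 1.35-fold higher when P5 KO library 2 was left out, or 1.55-fold when P5 KO library 1 was. The 1.5M wt mean was at least 3.42-fold higher, but without 1.5M wt library 1 it was 0.444, under the P5 wt floor, so that no bound remained, and without P5 wt library 1 the bound was 1.98-fold. Neither age difference passed limma's test (log2 fold change 1.38, SE 0.60, adjusted p = 0.215 in wt, and 1.56, SE 0.60, adjusted p = 0.198 in KO). Voom on the molecule numbers called Krt2 higher in 1.5M KO than in P5 KO (2.18, adjusted p = 0.0243), whereas its adjusted p in the other alternatives ran from 0.127 to 0.612. Krt78, another suprabasal keratin, was at 0.98 in P5 wt library 3, 2.72 and 1.2 in P5 KO libraries 1 and 3, 0.48 in 1.5M KO library 3, and 0 in the other 8.

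Krt5 and Krt14, the keratin pair of the basal layer, and Krt15, a basal keratin also found in the follicle bulge, were lower than Krt10 and Krt1 in P5 wt. Krt5 was at 7.10, 16.3 and 5.86 in P5 wt, 25.4, 15.3 and 63.6 in P5 KO, 6.45, 2.15 and 0.89 in 1.5M wt, then 3.36, 0.99 and 2.40 in 1.5M KO. Krt14 was at 9.24, 4.34 and 3.91 in P5 wt, 15.4, 10.2 and 22.8 in P5 KO, 3.69, 2.15 and 2.67 in 1.5M wt, then 1.92, 1.99 and 1.92 in 1.5M KO. Krt15 was at 1.42, 4.34 and 5.86 in P5 wt, 13.6, 7.27 and 34.8 in P5 KO, 1.84, 0.72 and 0.89 in 1.5M wt, then 0.96, 0.50 and 0.48 in 1.5M KO. For all 3 basal keratins the highest library was P5 KO library 3, and not library 1 as for Krt1 and Krt10. P5 KO and P5 wt overlapped for Krt5 and did not overlap for Krt14 and Krt15.

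The balance of basal to suprabasal keratins therefore differed among the P5 KO libraries. Krt5, Krt14 and Krt15 together made up 9.80% (60 of 612 molecules, exact 95% binomial interval 7.56% to 12.4%) of the molecules of these 3 genes plus Krt1 and Krt10 in P5 KO library 1. The share was 19.0% in library 2 (of 237 molecules, 14.2% to 24.6%) and 58.0% in library 3 (of 174 molecules, 50.3% to 65.5%). These 3 intervals do not overlap. In P5 wt the share was 32.9%, 35.7% and 32.0%, with intervals between 19.5% and 48.9%, so the 3 P5 wt libraries were alike within counting error. At 1.5M it was 38.2%, 66.7% and 38.5% in wt and 43.3%, 50.0% and 71.4% in KO, but from 10 to 34 molecules per library (rounded to whole molecules), with intervals that reach from 13.9% to 93.3%. Krt2, also suprabasal, is left out of this share. It had 10 molecules in 1.5M wt, 13 in 1.5M KO and 0 at P5, and counting it would lower the share in the 1.5M libraries that hold it. As a group mean the share was 33.5% ± 1.91 in P5 wt and 28.9% ± 25.6 in P5 KO (SD, n = 3).

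**Figure D3:**
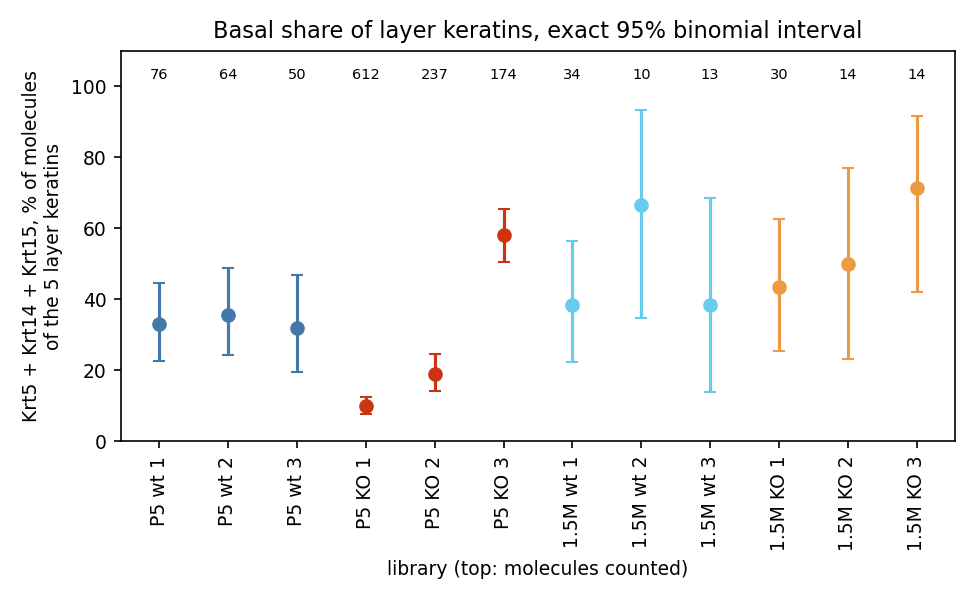
Krt5, Krt14 and Krt15 as a percentage of the molecules of Krt5, Krt14, Krt15, Krt1 and Krt10 in each library, with exact 95% binomial intervals as bars and the molecules counted at the top. The P5 KO libraries range from 9.80% to 58.0% without overlap of their intervals, whereas the P5 wt libraries lie between 32.0% and 35.7%.

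Keratins of the hair follicle were found at P5 and scarcely at 1.5M, apart from Krt79 in 1.5M wt, with a mean of 1.72 against 2.03 in P5 wt. Krt17, a keratin of the follicle's outer root sheath and of stressed epidermis, was at 4.26, 3.25 and 1.95 in P5 wt and 14.5, 7.27 and 2.40 in P5 KO, and at 0 in all 6 libraries at 1.5M. Krt25, a type I keratin of the inner root sheath, was at 2.84, 3.25 and 1.95 in P5 wt and 5.45, 4.36 and 2.40 in P5 KO, and likewise at 0 at 1.5M. The wt and KO ranges at P5 overlapped for both genes. Krt79, a keratin of the follicle canal and sebaceous duct, was at 2.84, 3.25 and 0 in P5 wt, 10.9, 6.55 and 4.80 in P5 KO, 0, 0.72 and 4.44 in 1.5M wt, then 0, 0 and 0.48 in 1.5M KO.

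The 21 keratins listed as hair shaft or inner root sheath keratins summed to 9.95, 4.34 and 3.91 in P5 wt and 12.7, 5.82 and 7.20 in P5 KO, and to 0 in all 6 libraries at 1.5M. Besides Krt25, its most abundant members were Krt71, at 4.97, 1.08 and 0 in P5 wt and 1.82, 0 and 0 in P5 KO, Krt35, between 0 and 2.40 in the P5 libraries, and Krt73, at 0.71 in P5 wt library 1 and 2.72 in P5 KO library 1. Krt75, a keratin of the follicle's companion layer, was at 2.13 and 1.08 in P5 wt libraries 1 and 2 and at 0 elsewhere. Of the hair and root sheath list, 11 were at 0 in all 12 libraries. The listed keratins of simple epithelia and Merkel cells (Krt7, Krt8, Krt18, Krt19 and Krt20) were at 0 in all 12 libraries.

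Among the genes of the cornified envelope, loricrin (Lor), its main structural protein, was at 2.84, 2.17 and 1.95 in P5 wt, 13.6, 13.8 and 7.20 in P5 KO, 0 in all 3 libraries of 1.5M wt, and 0.96, 0.99 and 0 in 1.5M KO. Each P5 KO library was above every P5 wt library, and P5 KO library 2 was as high as library 1. Dermokine (Dmkn), a secreted protein of the upper layers, was at 12.8, 7.59 and 2.93 in P5 wt, 34.5, 8.0 and 10.8 in P5 KO, 1.84, 1.43 and 2.67 in 1.5M wt, then 1.92, 1.49 and 1.44 in 1.5M KO. Suprabasin (Sbsn), a secreted protein of the suprabasal layers, was at 3.55, 3.25 and 1.95 in P5 wt, 13.6, 5.09 and 6.0 in P5 KO, 1.84, 0 and 0.89 in 1.5M wt, then 0, 0.50 and 0 in 1.5M KO. Sbsn did not overlap between P5 KO and P5 wt, and Dmkn did.

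The precursors that are crosslinked alongside loricrin were near the limit of 1 molecule. The 15 Sprr genes summed to 0.71 to 1.08 (P5 wt libraries), 1.2 to 2.72 (P5 KO), 0 to 0.92 (1.5M wt) and 0 to 1.92 (1.5M KO). The 20 Lce genes summed to 0.71 to 1.08, 0 to 4.36, 0 to 0.92 and 0 to 2.88 in the same order. Involucrin (Ivl) did not exceed 0.98 in any library, Sprr1a did not exceed 1.45, and Lce1a1 and Lce1m did not exceed 1.45 and 0.91. Sprr2a1 and Sprr2a2, a near-identical pair with equal values in every library, were at 0.91, 0.36 and 0.60 in P5 KO and 0 in P5 wt, and are uncertain because reads of near-identical copies can be split.

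The desmosomal cadherins of the set summed to 4.97, 8.68 and 4.88 in P5 wt, 31.1, 10.2 and 14.4 in P5 KO, 7.37, 2.86 and 0 in 1.5M wt, then 2.40, 0.50 and 0.48 in 1.5M KO. Dsg1a, which encodes a desmoglein 1 of the differentiated layers, was at 1.42, 5.42 and 2.93 in P5 wt, 16.6, 3.40 and 6.0 in P5 KO, 5.53, 2.86 and 0 in 1.5M wt, then 1.44, 0.50 and 0 in 1.5M KO. In 2 libraries its molecule number was not whole, as for Dsg1b and Dsg1c, its near-identical neighbours, so reads may be split among them and its values are uncertain there. Dsc3, the desmocollin of the lower layers, was at 1.42, 0 and 0.98 in P5 wt, 9.08, 3.64 and 4.80 in P5 KO, 1.84, 0 and 0 in 1.5M wt, then 0.48, 0 and 0.48 in 1.5M KO. Dsc3 did not overlap between P5 KO and P5 wt, whereas Dsg1a overlapped. Dsc1, of the upper layers, was between 0 and 2.18 at P5 and at 0.48 in a single library at 1.5M, and Dsg2 was between 0 and 2.40 at P5 and at 0 at 1.5M.

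Of the 100 genes, 26 were above 0 in at least 3 libraries and were tested with limma on log2(scaled count + 1) in 1 fit over all 10023 genes that passed this filter, with Benjamini-Hochberg adjustment and a threshold of 0.05. The other 27 detected genes had values in 1 or 2 libraries only. Some of the 26, such as Krt17 and Krt25, passed the filter through the P5 libraries alone and could only fall with age. Krt2 passed it through the 1.5M libraries alone and could only rise. The counts and medians of the 26 therefore describe the tested genes and not the set. Log2 fold changes on this scale understate the change of low genes.

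In P5 KO against P5 wt, 3 of the 26 genes rose and 0 fell, where 1.8% of all genes tested were called (1.15% higher and 0.649% lower). Krt10 rose with a log2 fold change of 2.27 (SE 0.55, adjusted p = 0.0362 by limma), Krt1 with 2.17 (SE 0.52, adjusted p = 0.0343) and Lor with 1.88 (SE 0.45, adjusted p = 0.0316). In means, Krt10 went from 20.7 ± 0.916 to 131 ± 112, Krt1 from 17.5 ± 5.40 to 112 ± 113 and Lor from 2.32 ± 0.463 to 11.55 ± 3.77 (SD, n = 3). Krt15 (1.87, SE 0.50, adjusted p = 0.0569), Dsc3 (1.94, SE 0.54, adjusted p = 0.0716), Krt14 (1.34, SE 0.38, adjusted p = 0.0774) and Krt5 (1.62, SE 0.51, adjusted p = 0.127) did not pass. At an unadjusted p under 0.05 there were 12, all higher in P5 KO, against 1278 of all 10023 genes tested. Voom on the molecule numbers called 5, which added Krt5 and Krt15, against 131 of all genes tested (1.31%). In 10 of the 26 genes each P5 KO library was above each P5 wt library, as in 6.23% of all genes tested. The median log2 fold change was 0.69 over the 26 genes, or 0.65 with genes of a group at 0 set to their bound, and -0.01 over all genes tested.

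These calls depended on single libraries. Without P5 KO library 1, adjusted p was 0.220 for Krt1, 0.226 for Krt10 and 0.125 for Lor, with log2 fold changes of 1.38, 1.61 and 1.74. Without P5 KO library 2 it was 0.0697, 0.0800 and 0.108 for Krt1, Krt10 and Lor. Without P5 wt library 1, 2 or 3 it was 0.106, 0.0695 and 0.136 for Krt1, 0.118, 0.105 and 0.113 for Krt10, and 0.0586, 0.0882 and 0.109 for Lor. When the 6 P5 libraries were fitted alone in limma none of the 26 was called and neither was any of the 10023 genes tested, with 11 of the 26 and 836 of all genes at an unadjusted p under 0.05. In that fit adjusted p was 0.420 for Krt1, 0.271 for Krt10 and 0.206 for Lor.

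At 1.5M, limma called 0 of the 26 genes between KO and wt, where 5.28% of all genes tested were called (3.24% higher and 2.04% lower). Voom called 0 of the 26, against 8.38% of all genes tested. In limma none of the 26 had an unadjusted p under 0.05, against 1492 of all genes tested, and the lowest adjusted p was 0.565. Krt10 was at 8.99 ± 8.65 in 1.5M wt, against 4.04 ± 2.45 in 1.5M KO (log2 fold change -0.64, SE 0.55, adjusted p = 0.7002), and Lor at 0 in all 3 wt libraries and 0.651 ± 0.564 in KO (0.66, SE 0.45, adjusted p = 0.586). No gene of the 26 had all KO libraries above all wt libraries, as 13.9% of all genes tested had. The opposite order was not counted over all genes tested. Krt14 had it, at 3.69, 2.15 and 2.67 in 1.5M wt against 1.92, 1.99 and 1.92 in 1.5M KO (log2 fold change -0.36, adjusted p = 0.768 by limma).

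With age in wild-type cells, 4 of the 26 genes fell and 0 rose from P5 wt to 1.5M wt, where 5.21% of all genes tested were called, 2.84% lower and 2.36% higher. Of the 4, Krt17 and Krt25 were at 0 in every library at 1.5M and could only fall. Krt1 fell by 3.50 on the log2 scale (SE 0.52, adjusted p = 0.000127 by limma), from 17.5 ± 5.40 to 0.665 ± 0.581. Krt17 fell by 2.02 (SE 0.52, adjusted p = 0.0215), Krt25 fell by 1.86 (SE 0.46, adjusted p = 0.0170) and Lor fell by 1.72 (SE 0.45, adjusted p = 0.0232). These 3 were at 0 in all 1.5M wt libraries, so that P5 wt was at least 3.80-fold higher for Krt17, at least 3.23-fold for Krt25 and at least 2.79-fold for Lor. Without 1.5M wt library 2 these bounds were 2.33-fold, 1.98-fold and 1.71-fold. Krt10, the partner of Krt1, averaged 20.7 and 8.99 and did not pass (log2 fold change -1.58, SE 0.55, adjusted p = 0.106), and the difference between the pair was not tested. In 9 of the 26 genes each P5 wt library was above each 1.5M wt library, as in 13.2% of all genes tested. The median log2 fold change was -0.73 over the 26 genes, or -0.26 with genes of a group at 0 set to their bound, and -0.22 over all genes tested. Another scaling, by median ratios, moved the median over all genes by 0.11 and left the same 4 genes called.

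Krt1 kept its call without any 1 of the 6 libraries compared, and the others did not. Without P5 wt library 1, adjusted p was 0.0932 for Krt17 and 0.0800 for Lor, and without P5 wt library 2 it was 0.0665 for Krt17, 0.0563 for Krt25 and 0.0534 for Lor. Without 1.5M wt library 1, 2 or 3 it was 0.0619, 0.0625 and 0.0594 for Krt17, and 0.0588, 0.0589 and 0.0567 for Lor.

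The same comparison in knockout cells gave the largest number of calls. From P5 KO to 1.5M KO, 13 of the 26 genes fell and 0 rose, where 3.14% of all genes tested were called, 1.43% lower and 1.72% higher. Krt1 fell by 5.91 on the log2 scale (SE 0.52, adjusted p = 3.84e-07 by limma) and Krt10 fell by 4.49 (SE 0.55, adjusted p = 1.69e-05). The log2 fold changes of the basal keratins Krt15, Krt5 and Krt14, which all fell, were -3.32, -3.29 and -2.48 (adjusted p = 0.000219, 0.000283 and 0.000274). Lor fell by 2.94 (adjusted p = 0.000242), Sbsn fell by 2.90 (adjusted p = 0.000752) and Dmkn fell by 2.58 (adjusted p = 0.0023).

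The follicle keratins Krt17, Krt79 and Krt25 also fell, with log2 fold changes of -2.92, -2.82 and -2.29 (adjusted p = 0.00138, 0.00939 and 0.00478 by limma). P5 KO was at least 16.6-fold higher for Krt17 and at least 8.39-fold higher for Krt25, both being at 0 in 1.5M KO. Neither was above 0 in any library at 1.5M, so both could only fall. Without P5 KO library 1 the bounds were 9.97-fold and 6.97-fold, and without 1.5M KO library 1 or 3 they were 11.02-fold and 5.56-fold. The cadherins Dsg1a and Dsc3 fell, with -2.41 and -2.32 (adjusted p = 0.0294 and 0.0163). In 14 of the 26 genes each P5 KO library was above each 1.5M KO library, as in 10% of all genes tested. The median log2 fold change was -1.77 over the 26 genes, or -1.96 with genes of a group at 0 set to their bound, and -0.06 over all genes tested.

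Of the 13 calls, 10 were kept without any 1 of the 6 libraries compared, namely all but Krt79, Dsc3 and Dsg1a. Without P5 KO library 1, adjusted p was 0.0696 for Krt79, 0.0913 for Dsc3 and 0.193 for Dsg1a. Without P5 KO library 3 it was 0.0710 for Dsg1a. Without 1.5M KO library 1 it was 0.0565 for Krt79, 0.0579 for Dsc3 and 0.0555 for Dsg1a, without library 2 it was 0.0731, 0.108 and 0.141, and without library 3 it was 0.0691 for Dsc3 and 0.210 for Dsg1a. Fitted on its own 6 libraries, this comparison kept 6 calls, Krt1, Krt10, Krt14, Krt79, Lor and Sbsn, and the calls over all genes tested went from 315 to 86. Voom called 18 of the 26, of which 17 were lower and 1, Krt2, higher. It held all 13 calls and added Dsc1, Dsg2, Krt35 and Lce1a1 besides Krt2, and it called 802 of all genes tested.

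**Figure D4:**
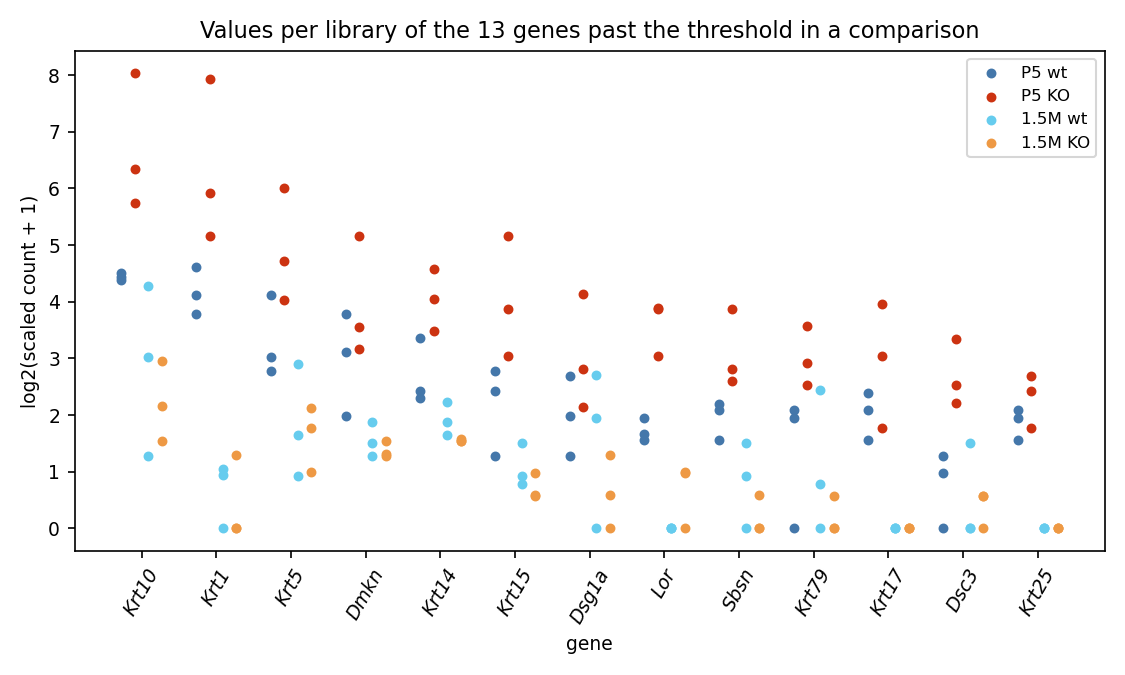
Values of log2(scaled count + 1) in each library, with 1 point per library coloured by group, for the 13 genes called in any of the comparisons. P5 KO points lie at the top for Krt10 and Krt1, and Krt17 and Krt25 are at 0 in all 6 libraries at 1.5M.

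Whether the knockout effect differed between the ages was tested as the difference of the differences. Limma called 0 of the 26 genes, where 2% of all genes tested were called (1.32% with a higher and 0.678% with a lower effect at 1.5M). There were 9 genes at an unadjusted p under 0.05, all with a lower effect at 1.5M than at P5, against 1332 of all 10023 genes tested. Voom called 1, Krt79, against 331 of all genes tested (3.3%). The lowest adjusted p was that of Krt10 (-2.91, SE 0.78, adjusted p = 0.0539), followed by Krt1 (-2.41, SE 0.74, adjusted p = 0.106). Without P5 KO library 3, Krt1 and Krt10 were called, and without 1.5M wt library 2, Krt10 was called. The age comparisons share no libraries with each other, but each shares libraries with a knockout comparison, so the 4 are not independent.

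Other genes of the keratinocyte program, taken from 7 lists that hold desmosome partners, further envelope and granule genes, proteases, lipid barrier genes, basement membrane anchors, transcription factors and other keratinocyte genes, were measured in the same libraries. These 69 genes summed to 65.4 to 86.8 (P5 wt libraries), 331, 140 and 130 (P5 KO), 20.03 to 42.6 (1.5M wt) and 26.4 to 29.3 (1.5M KO). As with the keratins, P5 KO library 1 was the highest and the P5 groups lay above those at 1.5M. Genes that are not specific to keratinocytes held part of the sums at 1.5M, with Dst at 9.11, 9.94 and 10.1 in KO. St14 was at 2.76, 5.72 and 6.22 in 1.5M wt. Of the 69, 37 were tested. Some of the 37, such as Asprv1 and Gjb2, passed the filter through the P5 libraries alone and could only fall with age. The counts and medians of the 37 therefore describe the tested genes and not the lists.

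In P5 KO against P5 wt, 2 of the 37 (5.41%) rose and 0 fell, where 1.8% of all genes tested were called, with a median log2 fold change of 0.60, or 0.53 with genes of a group at 0 set to their bound. Ly6d, a surface protein of keratinocytes that is not specific to them, was at 2.84, 3.25 and 1.95 in P5 wt and 34.5, 14.5 and 16.8 in P5 KO (2.56, SE 0.46, adjusted p = 0.00428 by limma). Leaving out any 1 of the 6 P5 libraries did not end this call. Perp, a membrane protein of desmosomes, was at 4.26, 3.25 and 5.86 in P5 wt and 48.1, 8.73 and 16.8 in P5 KO (1.93, SE 0.46, adjusted p = 0.0312). Its adjusted p was 0.0878, 0.114 and 0.0630 without P5 wt library 1, 2 or 3, and 0.199 and 0.0675 without P5 KO library 1 or 3. With the 6 P5 libraries fitted alone it was 0.206 for Ly6d and 0.390 for Perp.

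From P5 wt to 1.5M wt, 4 of the 37 fell and 1 rose (13.5% called, against 5.21% of all genes tested). Dsp, which encodes the desmosome protein desmoplakin, fell by 2.03 on the log2 scale (adjusted p = 0.0257 by limma), Lgals7, an epithelial galectin, fell by 1.78 (adjusted p = 0.0183), Spink5, a protease inhibitor of the skin barrier, fell by 1.76 (adjusted p = 0.0395), and Calm4, a calmodulin-like protein of skin, fell by 1.50 (adjusted p = 0.0233). Without P5 wt library 1, adjusted p was 0.0873 for Dsp and 0.0825 for Lgals7. Without P5 wt library 2 it was 0.0655, 0.0922, 0.178 and 0.108 for Dsp, Lgals7, Spink5 and Calm4, and without P5 wt library 3 it was 0.0732, 0.0743 and 0.0641 for Dsp, Spink5 and Calm4. Without 1.5M wt library 1 it was 0.108 for Dsp and 0.124 for Spink5, without library 2 it was 0.117, 0.0927, 0.151 and 0.117 for Dsp, Lgals7, Spink5 and Calm4, and without library 3 it was 0.0563 for Calm4. Calm4 and Spink5 also lost their calls under scaling by median ratios (0.0618 and 0.0775). The gene that rose was St14, which encodes the membrane protease matriptase, from 0 in all 3 P5 wt libraries to 2.76, 5.72 and 6.22 (2.504, SE 0.51, adjusted p = 0.00342).

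From P5 KO to 1.5M KO, 9 of the 37 (24.3%) fell and 0 rose, where 3.14% of all genes tested were called, with a median of -1.14, or -1.58 with genes of a group at 0 set to their bound. Ly6d fell by 3.90 on the log2 scale (adjusted p = 1.1e-05 by limma), Perp fell by 3.27 (adjusted p = 9.66e-05), Krtdap, a secreted protein of differentiating keratinocytes, fell by 2.94 (adjusted p = 0.00108), Asprv1, a protease of the granular layer, fell by 2.82 (adjusted p = 0.000361), Spink5 fell by 2.73 (adjusted p = 0.00182) and Calm4 fell by 2.73 (adjusted p = 0.000116). These 6 were called without any 1 of the 6 libraries compared, and Asprv1 was at 0 in all 6 libraries at 1.5M. The other 3 that fell were Dsp, Lgals7 and Ppl, whose calls were lost without 1.5M KO library 3 (adjusted p = 0.0578, 0.0572 and 0.108). Lgals7 and Ppl also lost theirs without P5 KO library 1 (0.0750 and 0.118), 1.5M KO library 1 (0.0742 and 0.0999) or 1.5M KO library 2 (0.0817 and 0.20), and Ppl without P5 KO library 3 (0.0679).

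At 1.5M, 1 of the 37 was higher and 1 lower in KO, a share of 5.41% that lies near the 5.28% of all genes tested. St14 was at 2.76, 5.72 and 6.22 in 1.5M wt, against 0.48, 0 and 0 in 1.5M KO (-2.32, SE 0.51, adjusted p = 0.00571 by limma). Dst, which encodes dystonin, a linker of the cytoskeleton, was at 0, 3.58 and 3.55 in 1.5M wt, against 9.11, 9.94 and 10.1 in 1.5M KO (1.96, SE 0.57, adjusted p = 0.0455). The Dst call was lost without 1.5M wt library 1 (0.295) and without 1.5M KO library 1, 2 or 3 (0.130, 0.181 and 0.180). Neither gene is specific to keratinocytes, and none of the 12 tested keratins passed limma's test in this comparison.

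Markers of other cell types stood in the same P5 KO libraries. The 6 neutrophil markers summed to 82.2, 47.0 and 213 in P5 KO libraries 1, 2 and 3, against 3.02 to 10.3 in P5 wt and 0.25 to 1.78 in the 6 libraries at 1.5M. The sum was carried by S100a8, at 35.4, 26.9 and 94.8 in P5 KO, and S100a9, at 34.5, 16.0 and 104 there, which keratinocytes of inflamed skin express as well, with Retnlg at 10.9, 0 and 8.40. Csf3r, the receptor of a neutrophil growth factor, averaged 3.67 in P5 wt and 3.77 in P5 KO (log2 fold change 0.03, SE 0.50), and Mpo and Elane, of neutrophil granules, were at 0 in all 12 libraries. The erythroid markers summed to 205, 267 and 0.79 in P5 KO, 0 to 2.84 in P5 wt, and 0 in all 6 libraries at 1.5M, with Hba-a1, an alpha globin, at 78.6, 125 and 0 in P5 KO. P5 KO library 3, with the highest neutrophil sum and almost no globin RNA, was also the library with the highest basal keratins, and P5 KO libraries 1 and 2, with globin RNA, had the higher Krt1 and Krt10. The fibroblast markers summed to 0.98 to 8.68 in P5 wt, 2.40 to 8.17 in P5 KO and 0 in all libraries at 1.5M, and the melanocyte, mast cell and T cell markers to at most 1.42 in any library. The 4 listed Langerhans cell markers, Cd207, Epcam, Cdh1 and Cldn1, summed to 48.8 to 60.6 (P5 wt), 8.18 to 14.99 (P5 KO), 314 to 386 (1.5M wt) and 26.8 to 40.8 (1.5M KO). Since Cd207 was at 0 in P5 KO, the sum there came from Epcam, Cdh1 and Cldn1, which are not specific to Langerhans cells. The part of these other cells in the keratin and cornification values was not tested.

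**Figure D5:**
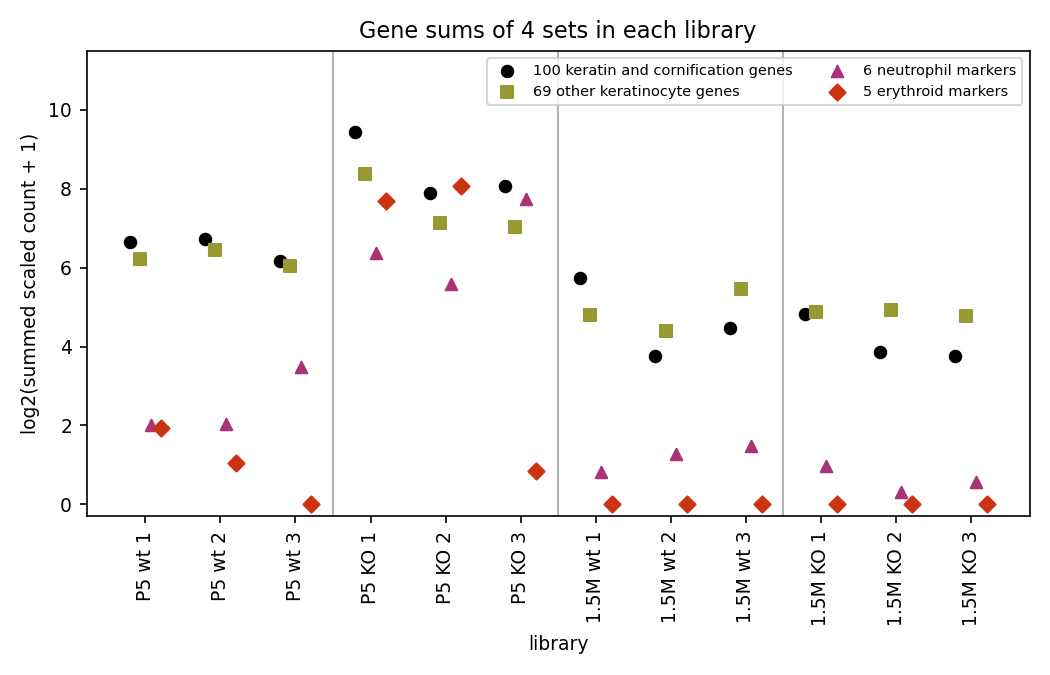
Summed scaled count, drawn as log2(sum + 1), in each library for the 100 keratin and cornification genes, 69 other keratinocyte genes, 6 neutrophil markers and 5 erythroid markers. The keratin and the other keratinocyte sums are highest in P5 KO library 1, whereas the neutrophil sum is highest in library 3 and the erythroid sum, at 267, in library 2.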

How the data were processed

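The labels' protocols describe a 3' library from 100 sorted cells, with spike-in RNA, an oligo-dT primer carrying a molecular barcode, and template switching. The submitters' processing notes name TopHat2 and mm10. The sources used here do not state versions, annotation, counting, strand or scaling. Values in the deposited table are a signal: from the values, the authors scaled molecule counts to a total of 37092 per library, and 92.6% to 94.9% of values above 0 were whole multiples (tolerance 0.01) of 1 molecule. This was too few to treat them as recovered counts, so the branch planned for normalized values was used. Depths and floors come from that step and cover counting error only. No spike-in rows were used here.

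Values were tested as log2(scaled count + 1) with limma 3.58.1 in R 4.3.3: 12 libraries, 4 group means, mean-variance trend, genes above 0 in at least 3 libraries, two-sided, Benjamini-Hochberg over the 10023 genes. The fit was tested on simulated data. Sums, shares and figures used Python 3.11.15 with pandas 2.3.3, scipy 1.17.1 and matplotlib 3.10.9. Alternatives were other pseudocounts (0.1, 10), no filter, median-of-ratios scaling, the replicate number as a block, a fit of only the compared libraries, voom, thinning to 30797 molecules, and leaving out each library. Named are the 25 members with the highest mean and those called, and genes of the lists. Members and lists were chosen with earlier results of these data known. Symbols were used as in the table, and promoters are from RefSeq.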

Additional observations from a re-analysis of the deposited data

Results flagged for a closer look

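Among the listed genes of the keratinocyte program outside the set, limma called a difference between the knockout effects at 1.5M and at P5 for 2. These were Ly6d and St14, neither of which is specific to keratinocytes. For Ly6d it was -2.84 on the log2 scale (SE 0.65, adjusted p = 0.0189), and the call was lost without P5 wt library 3 (0.0534), P5 KO library 1 (0.0831), 1.5M wt library 3 (0.0666) or 1.5M KO library 2 or 3 (0.0578 and 0.0811), and with a pseudocount of 0.1 (0.335). For St14 it was -3.17 (SE 0.72, adjusted p = 0.0174), lost without 1.5M KO library 2 (0.0722) or 3 (0.0735) and with a pseudocount of 0.1 (0.0774). Ly6d was higher in P5 KO than in P5 wt and near 0 to 1.78 at 1.5M, whereas St14 was above 0 in all 3 libraries of 1.5M wt and in few others.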

How the results depend on the processing

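In P5 KO against P5 wt, the 3 called keratin and envelope genes became 0 with a pseudocount of 0.1, 7 with a pseudocount of 10 and 2 with no filter. They became 0 with only the 6 compared libraries, 5 with voom and 0 after thinning, and 0 to 3 when a library was left out. From P5 wt to 1.5M wt, the 4 calls became 1 with a pseudocount of 10, 1 with only the compared libraries and 2 after thinning, and 1 to 6 when a library was left out. From P5 KO to 1.5M KO, the 13 calls became 10 with a pseudocount of 0.1, 6 with only the compared libraries, 18 with voom and 10 after thinning. They became 10 to 14 when a library was left out. For the difference of knockout effects, the 0 calls became 2 with a pseudocount of 10, 1 with voom, 2 with the replicate number as a block, and 0 to 2 when a library was left out. KO against wt at 1.5M gave 0 calls in each alternative run. With only the compared libraries, the calls over all genes fell too, from 180 to 0, 522 to 111 and 315 to 86 in the first 3 comparisons. The cause of these shifts was not tested. The replicate block otherwise gave 4, 5, 13 and 0 calls, in P5 KO against P5 wt, P5 wt to 1.5M wt, P5 KO to 1.5M KO, and KO against wt at 1.5M. Libraries with the same number did not vary together (18 pairs, correlations -0.017 to 0.023), and 6 of 12 libraries correlated best with their own number. For the named genes, 1824 values kept their side of the threshold, 153 lost the call, 28 gained it and 0 reversed. The 1824 include comparisons that were not called and stayed so, and therefore do not measure how stable the calls were. The mean P5 KO sum went from 400.2 to 251 without library 1, and that of 1.5M wt from 28.8 to 16.9 without library 1. Members at 1 or 2 molecules, and those with a near-identical copy, are the least certain.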
